A study of Arabidopsis thaliana with 9 samples.

Results

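Histone H3 genes were examined in sperm chromatin of Arabidopsis thaliana plants that carry the htr10 mutation. They are 10 loci, fixed by their identifiers and not by any measured value. The gene table held 10 of the 10, among 27444 nuclear protein-coding genes. The set comprises the H3.1 genes HTR1 (AT5G65360), HTR2 (AT1G09200), HTR3 (AT3G27360), HTR9 (AT5G10400) and HTR13 (AT5G10390), and the H3.3 genes HTR4 (AT4G40030), HTR5 (AT4G40040) and HTR8 (AT5G10980). It is completed by HTR10 (AT1G19890, also called MGH3) and HTR12 (AT1G01370, also called CENH3). The names H3.1, H3.3, MGH3 and CENH3 in the gene table match these classes for all 10.

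Histone H3 is one of the core proteins around which DNA is wound. H3.1 is the form deposited behind the replication fork in dividing cells, and H3.3 is deposited independently of replication, mostly over transcribed genes. HTR10 encodes an H3 of the male gametes, and HTR12 encodes the centromeric H3 on which kinetochores assemble. Lysine 27 of H3 can carry 1 or 3 methyl groups. H3K27me1 is best known in this plant from transposons and other heterochromatin, where ATXR5 and ATXR6 deposit it. H3K27me3 is the product of Polycomb repressive complex 2 and marks developmental genes kept off.

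The material was sperm nuclei sorted by FACS and digested with micrococcal nuclease to mononucleosomes. There were 9 samples, namely 3 immunoprecipitations with an anti-H3K27me1 antibody, 3 with an anti-H3K27me3 antibody and 3 inputs of digested chromatin. All 9 carry the htr10 genotype label, the allele is not named there, and no other genotype was used here. The values say nothing of what the mutation changes. The ecotype label reads Col-0 for the inputs and for H3K27me1 samples 1 and 2, Col-1 for H3K27me1 sample 3, and Col-2, Col-3 and Col-4 for the H3K27me3 samples. The labels do not say what these numbers stand for.

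Each mark had 1 broad and 1 narrow peak list for its 3 immunoprecipitations together. No value below therefore has a replicate error, no test was possible, and sequencing depth is unknown. The broad lists held 11898 H3K27me1 and 12927 H3K27me3 peaks. The narrow lists, which hold shorter intervals, had 9451 and 8940. Each peak carries the authors' fold enrichment over the peak caller's background and the authors' −log10 q, a measure of how firmly the peak was called, and both serve here only to place a peak within its own list. Peak lists cannot check the sperm origin of the chromatin or whether HTR10 was disrupted. Peak positions are on TAIR10. The gene intervals come from TAIR10.1 and have no strand, so the sides of a gene are called low and high by chromosome numbering. Distances are the bases between the nearest edges of a gene and a peak.

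Most histone H3 genes had no peak of either mark inside the gene. H3K27me1 broad peaks reached into 2 of the 10, HTR3 and HTR13, where 22.7% of all protein-coding genes had at least 1 base covered. H3K27me3 broad peaks reached into 3, HTR3, HTR9 and HTR12, where the share of all genes was 26.0%. HTR3 was the only H3 gene of the 10 with both marks in its body, against 17.5% of all genes. HTR13 had H3K27me1 alone (5.17% of all genes), and HTR9 and HTR12 had H3K27me3 alone (8.54% of all genes). The remaining 6 had neither, as did 68.8% of all genes. These counts lie near the shares over all genes.

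**Figure D1:**
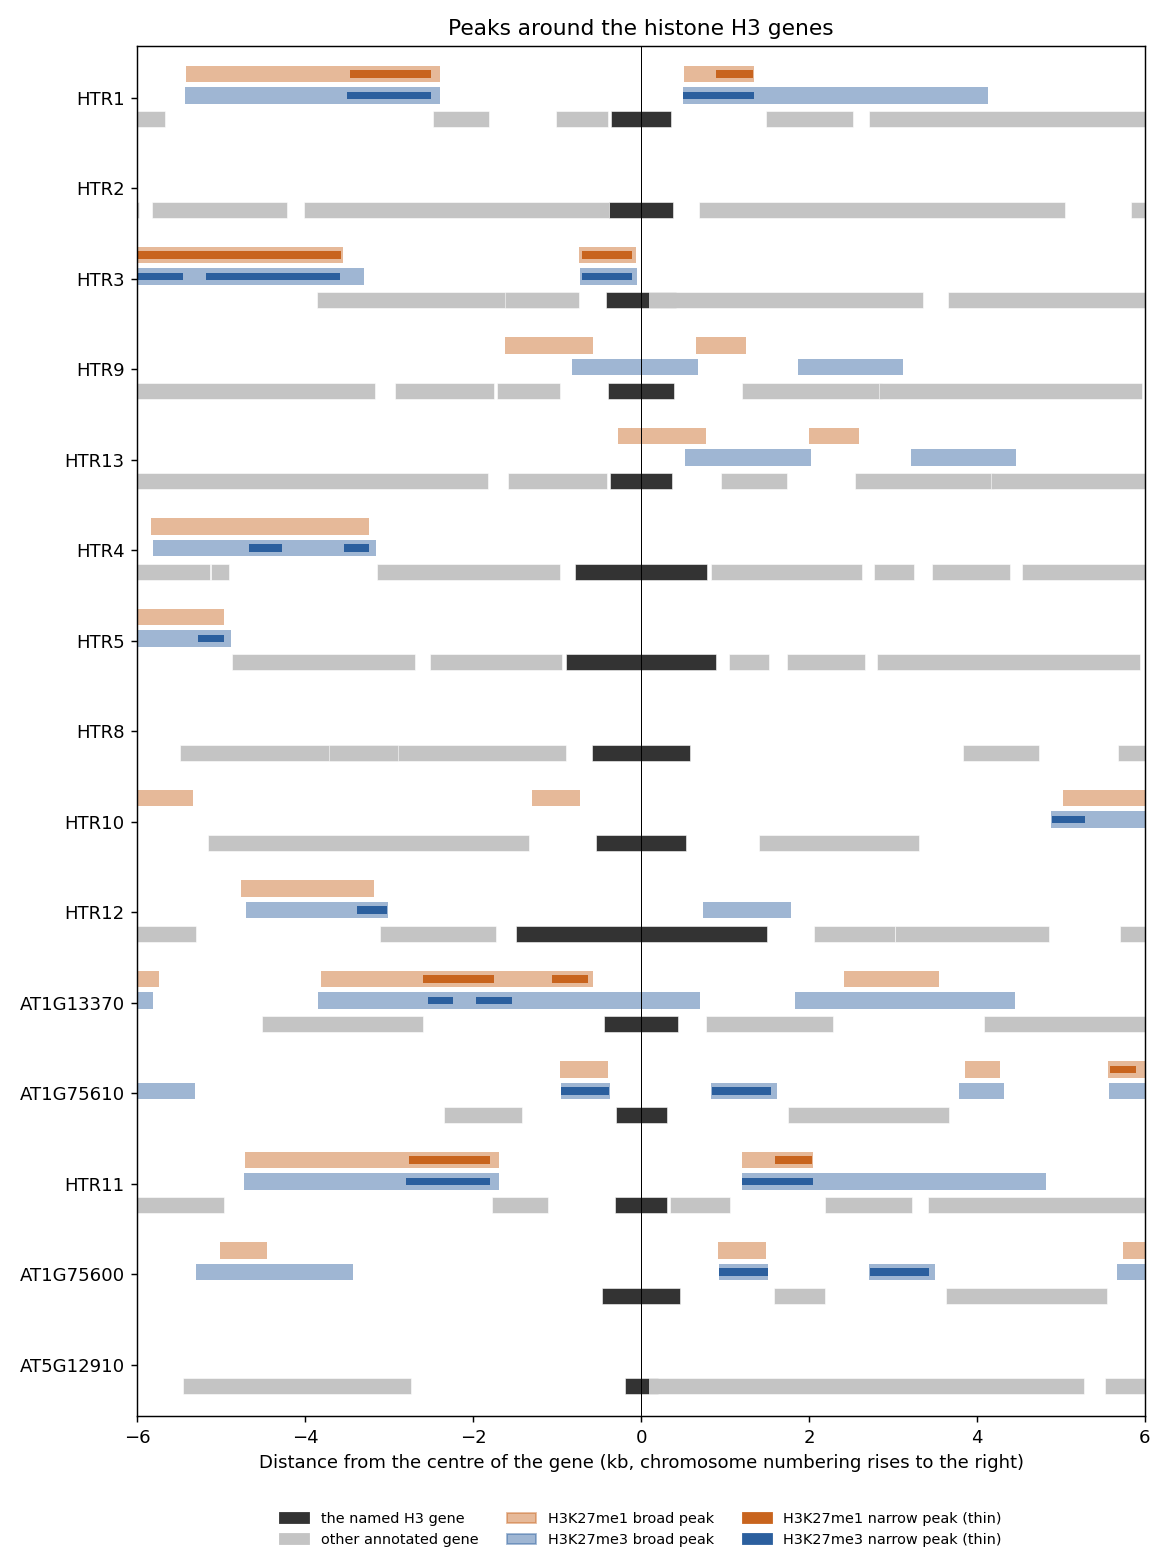
Broad (pale, thick) and narrow (dark, thin) peaks of H3K27me1 (orange) and H3K27me3 (blue) within 6 kb of the centre of 15 H3 loci, the 10 genes described here and 5 further loci. The horizontal axis is the distance from the gene centre in kb, black boxes are the named genes and grey boxes other annotated genes. HTR2, HTR8 and the further locus AT5G12910 have no peak in this window, and HTR10 has an H3K27me1 broad peak close by on its low side.

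HTR10, the gene that names the mutant, was free of both marks, with 0% of its 1066 bp under either broad list. Its nearest H3K27me1 peak lay 189 bp away on the low side (chromosome 1, 6904191 to 6904773) and covered 29.2% of the 2 kb on that side. That peak touched no annotated gene. It was a weak one (fold 1.54, −log10 q 2.29), and 31.3% of its list had a lower −log10 q. No H3K27me3 peak came within 2 kb. The nearest one began 4355 bp away on the high side (6910384 to 6912474, fold 1.77, −log10 q 4.28). HTR10 thus sat in a stretch of 15.3 kb without H3K27me3 broad peaks, and 34.2% of protein-coding genes sat in one as long or longer. In the narrow lists the nearest H3K27me1 peak was 24979 bp away and the nearest H3K27me3 peak 4359 bp away, so the H3K27me1 peak beside HTR10 rests on the broad list.

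The 5 H3.1 genes differed widely among themselves, from HTR9, wholly under H3K27me3, to HTR2, with no peak within 15 kb. HTR3 was the only one of the 10 with narrow peaks in its body. H3K27me1 covered 42.7% of HTR3, and the broad peak spanned 10128782 to 10129460 of chromosome 3 (fold 1.61, −log10 q 2.58). H3K27me3 covered 44.7%, and its broad peak spanned 10128789 to 10129476 (fold 1.70, −log10 q 2.42). The starts of these peaks differed by a few bases, and both held the low-coordinate part of the gene and the sequence next to it. The other end of HTR3 overlaps the neighbouring gene SDH2-1, a subunit gene of mitochondrial succinate dehydrogenase, over 328 bp. The H3K27me1 peak stopped 149 bp short of SDH2-1 and the H3K27me3 peak 133 bp short, so neither touched the shared part. In the narrow lists HTR3 kept 37.1% under H3K27me1 (fold 1.85, −log10 q 4.81) and 36.6% under H3K27me3 (fold 1.91, −log10 q 3.87). These narrow peaks shared 595 bp, and their summits lay 411 bp apart.

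HTR13 and HTR9 stand side by side on chromosome 5 with 577 bp between them, and each was covered by a different mark. H3K27me1 covered 86.8% of HTR13 and 0% of HTR9, its peak spanning 3268946 to 3269996 (fold 1.51, −log10 q 1.77). H3K27me3 covered 100% of HTR9 and 0% of HTR13, its peak spanning 3269739 to 3271244 (fold 1.66, −log10 q 2.27). HTR13 was the only one of the 10 covered over at least 50% by H3K27me1 (5.49% of all genes), and HTR9 the only one by H3K27me3 (5.67% of all genes). Among genes of at most 2000 bp these shares were 9.33% and 9.73%, and all of the 10 but HTR12 are that short. The peaks shared 258 bp in the gap between the genes. A further H3K27me1 peak began 263 bp beyond HTR9 on its high side, from 3271221 to 3271819, with the near-minimal −log10 q of 1.03 and a fold of 1.37. None of these was a strong call. The H3K27me1 peak over HTR13 exceeded 15.6% of its list by −log10 q and the H3K27me3 peak over HTR9 37.6%. Neither gene had any narrow peak in its body or 2 kb flanks, and the nearest narrow peaks of HTR13 lay 7748 bp (H3K27me1) and 7716 bp (H3K27me3) away. With no value per sample, the difference between these neighbours was not tested.

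HTR1 had no mark in the gene and, by −log10 q, the strongest nearest peak of the 10. H3K27me1 began 144 bp from its high side, at 26120726 to 26121563 of chromosome 5 (fold 1.83, −log10 q 5.57). This was the only nearest peak of any H3 gene among the 10 with a −log10 q of at least 5, and it exceeded 85.0% of its list. H3K27me3 began 133 bp away and ran on from 26120715 to 26124347 over the neighbours AT5G65370 and AT5G65380 (fold 1.77, −log10 q 3.26). On this side H3K27me1 covered 41.9% and H3K27me3 93.4% of the 2 kb. Both marks also had narrow peaks here, of fold 2.46 and −log10 q 13.98 for H3K27me1 and fold 2.41 and −log10 q 9.50 for H3K27me3. They shared 439 bp, and their summits were 94 bp apart.

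In the full broad lists HTR2 was the H3 gene farthest from any peak. Its nearest H3K27me1 peak lay 15406 bp away and its nearest H3K27me3 peak 15429 bp away, both on the low side, where the H3K27me3 peak touched AT1G09160. Only 6.25% of protein-coding genes were as far or farther from H3K27me1, and 3.203% from H3K27me3. The stretch without broad peaks around it measured 32.1 kb for H3K27me1 and 34.2 kb for H3K27me3. This rank depended on the list. With narrow H3K27me1 peaks HTR12 (27290 bp) and HTR10 (24979 bp) lay farther away than HTR2 (20040 bp). The same held with the 50% of H3K27me1 broad peaks of highest fold. At −log10 q 5 or more HTR4 and HTR5 lay farther away than HTR2 for both marks. For H3K27me3 HTR2 stayed farthest with narrow peaks and with the 50% of highest fold. The H3.1 genes encode the same protein and their coding sequences are alike. The sources used here do not say how reads matching several places were treated, and its part in the differences between HTR1, HTR2, HTR3, HTR9 and HTR13 was not tested.

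**Figure D2:**
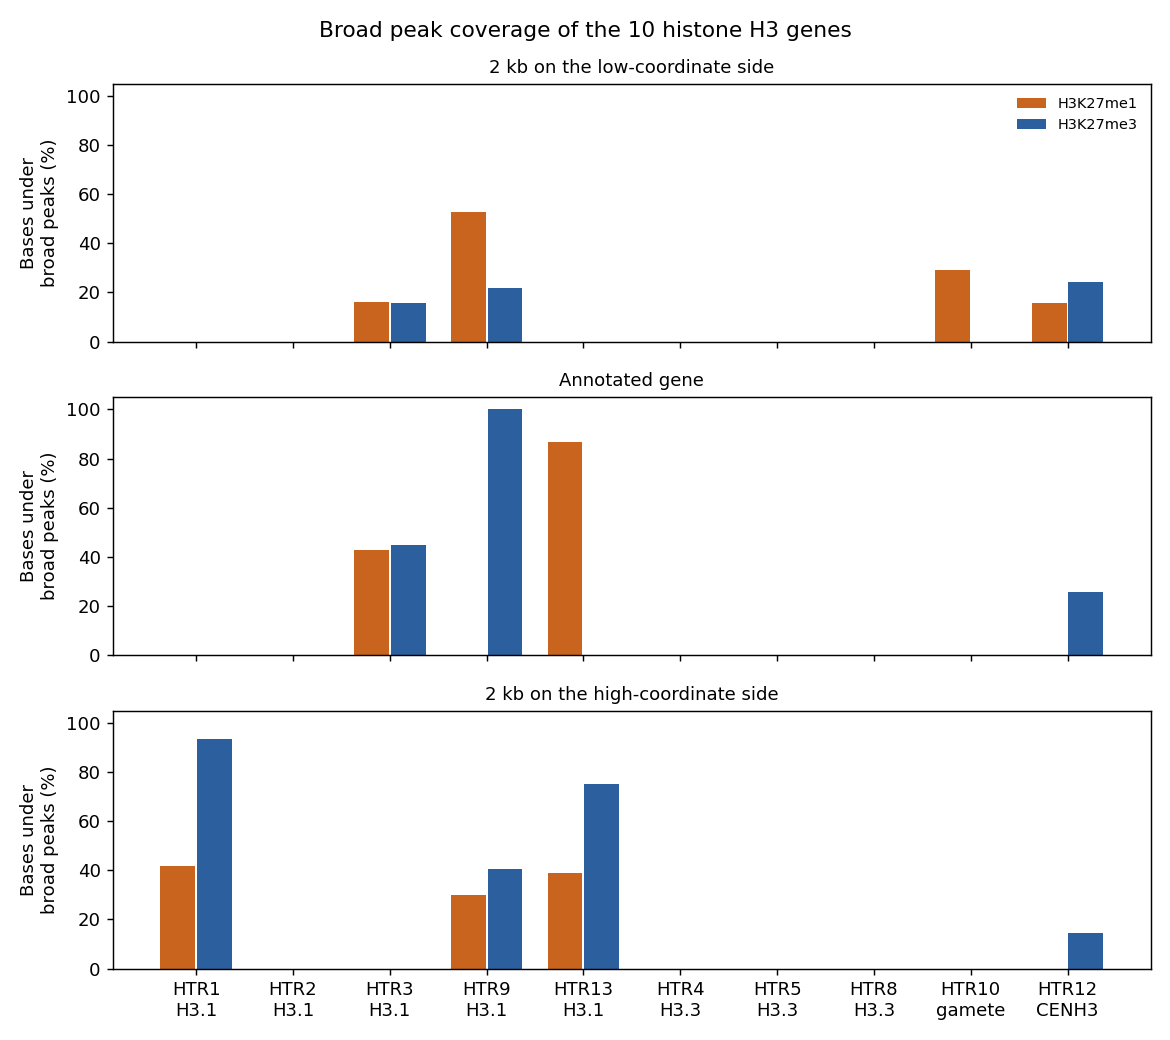
Percent of bases under broad peaks of H3K27me1 (orange) and H3K27me3 (blue) in the 2 kb on the low side, the annotated gene and the 2 kb on the high side of each of the 10 H3 genes. HTR2 and the 3 H3.3 genes show no bar in any panel, while HTR13 reaches 86.8% under H3K27me1 and HTR9 100% under H3K27me3.

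The H3.3 genes were bare of both marks, in the gene and in both 2 kb flanks. HTR4 and HTR5 are adjacent on chromosome 4, with 42 bp between them, and share their nearest peaks. H3K27me1 ended 2453 bp from HTR4, at the edge of a peak from 18550486 to 18553078 (fold 1.55, −log10 q 2.499), and H3K27me3 ended 2368 bp from it, at the edge of one from 18550500 to 18553163 (fold 1.78, −log10 q 3.52). From HTR5 the same peaks were 4070 and 3985 bp away. Both peaks touched AT4G40010, annotated as the protein kinase gene SNRK2.7, and AT4G40011. HTR8, on chromosome 5, was 6939 bp from the nearest H3K27me1 peak (fold 1.49, −log10 q 1.91) and 7531 bp from the nearest H3K27me3 peak (fold 1.78, −log10 q 3.39). The H3K27me1 peak touched AT5G11000. Among all protein-coding genes, 19.3% were at least as far from H3K27me1 as HTR8 and 11.9% at least as far from H3K27me3. The stretch free of broad peaks was 17.6 kb (H3K27me1) and 14.4 kb (H3K27me3) around the HTR4 and HTR5 pair and 16.5 and 17.3 kb around HTR8.

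HTR12, the centromeric H3 gene and the longest of the 10 at 2991 bp, had H3K27me3 at its high-coordinate end. The peak (chromosome 1, 145717 to 146771, fold 1.64, −log10 q 2.38) covered 25.5% of the gene. H3K27me1 covered 0% of it. Both marks had a peak on the low side, at 1686 bp for H3K27me1 (from 140223 to 141802, fold 1.53, −log10 q 2.28) and at 1515 bp for H3K27me3 (from 140279 to 141973, fold 1.86, −log10 q 4.06). The narrow lists had no peak in HTR12, and 9.10% of its 2 kb flanks lay under narrow H3K27me3 and 0% under narrow H3K27me1. HTR12 therefore lost its body coverage when narrow peaks were used and kept the H3K27me3 peak on its low side.

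Peaks beside the genes were found for 4 of the 5 H3.1 genes, for HTR10 and HTR12, and for 0 of the 3 H3.3 genes. At least 1 base of the 2 kb flanks lay under H3K27me1 for 6 of the 10 (55.4% of all genes) and under H3K27me3 for 5 (61.6%). HTR1, HTR3, HTR9, HTR13 and HTR12 had both marks in their flanks, as did 13931 of all 27444 protein-coding genes. HTR10 had H3K27me1 alone in its flanks. The remaining 4, HTR2, HTR4, HTR5 and HTR8, had no broad peak of either mark in the gene or its flanks, as did 33.0% of all genes. Flank coverage over both sides ran from 0% to 41.3% (HTR9) for H3K27me1 and from 0% to 46.7% (HTR1) for H3K27me3. Its median was 7.96% and 3.95%, against 8.03% and 11.6% over all protein-coding genes. For H3K27me3 this order turned with the 50% of broad peaks of highest fold, at 3.95% for the 10 and 0% for all genes. HTR9 and HTR13 lie in one another's flanks, as do HTR4 and HTR5, so these values are not independent.

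The flank coverage fell mostly outside annotated genes. Summed over the 10, H3K27me1 covered 32.2% of the flank bases free of genes and 2.48% of those inside neighbouring genes, and H3K27me3 covered 29.1% and 8.10%. Over all protein-coding genes the same shares were 33.9% and 5.15% for H3K27me1 and 36.6% and 5.99% for H3K27me3. HTR3 has 328 bp of gene-free flank, and 98.5% of it lay under H3K27me1 and 96.3% under H3K27me3. Neighbouring genes fill the rest of its flanks and had 0% under both, so the marks covered 8.08% and 7.90% of its flanks in all. At HTR1, H3K27me1 covered 42.8% of gene-free bases and 0% of neighbouring genes, whereas H3K27me3 covered 50.7% and 42.8%. Of the genes without a flank peak, HTR2, HTR4 and HTR5 had 305, 369 and 723 gene-free flank bases, and HTR8 had 2315. Among those with one the number ran from 328 (HTR3) to 1957 (HTR1). Whether this bears on the difference between H3.1 and H3.3 genes was not tested.

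How far both marks lay on the same bases depended on the peak list. Genes and 2 kb flanks of the 10, counted once where they overlap, spanned 45068 bp. Of these bases, 4.67% lay under both marks, 4.34% under H3K27me1 alone and 8.92% under H3K27me3 alone, so 26.1% of the marked bases carried both. Around all protein-coding genes, also counted once, 61.5% of marked bases carried both. With narrow peaks the order turned, at 57.1% for the 10 genes and 52.5% for all. It did not turn for all 15 H3 loci, which had 39.4% with narrow peaks. With the 50% of broad peaks of highest fold the 10 genes stayed below all genes, at 26.9% against 51.1%. At −log10 q 5 or more the 10 genes had 0% of 838 marked bases under both marks, against 39.5% for all. In the broad lists the share was 37.4% for all 15 H3 loci described here and 38.9% for the 10 without HTR9 and HTR13. Bases under H3K27me3 alone numbered 1748 in the window of HTR9, 1224 at HTR13, 1029 at HTR1 and 1226 at HTR12, and those of HTR9 and HTR13 overlap. H3K27me1 alone covered 1368 bp at HTR9, 1143 bp at HTR13 and 583 bp at HTR10. The difference from other genes is a description of 10 genes and was not tested.

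The median distance to the nearest H3K27me1 peak was 938 bp for the 10 genes and 1200 bp for all protein-coding genes. For H3K27me3 it was 1256 bp and 592 bp. The order of the 10 against all genes changed with the list. With narrow peaks the H3K27me1 medians were 10484 bp for the 10 and 5688 bp for all genes, and the H3K27me3 medians 4212 and 4778 bp. With the 50% of broad peaks of highest fold they were 10384 and 6028 bp for H3K27me1 and 1256 and 4178 bp for H3K27me3. At −log10 q 5 or more they were 93078 and 34286 bp for H3K27me1 and 42133 and 41188 bp for H3K27me3. The H3K27me1 order thus turned in all 3 of these alternatives, and the H3K27me3 order in the first 2. A nearest broad peak over 5 kb away was found for HTR2 and HTR8 with both marks, 2 of 10, where 26.1% of all genes were that far from H3K27me1 and 19.4% from H3K27me3. In order of distance to H3K27me1 in the full broad list the genes were HTR3 and HTR13 (0 bp), HTR1 (144 bp), HTR9 (175 bp), HTR10 (189 bp), HTR12 (1686 bp), HTR4, HTR5, HTR8 and HTR2. For the full H3K27me3 broad list the order was HTR3, HTR9 and HTR12 (0 bp), HTR1 (133 bp), HTR13 (144 bp), HTR4 (2368 bp), HTR5, HTR10, HTR8 and HTR2. With 1 list per mark, whether neighbours in these orders differ was not tested.

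**Figure D3:**
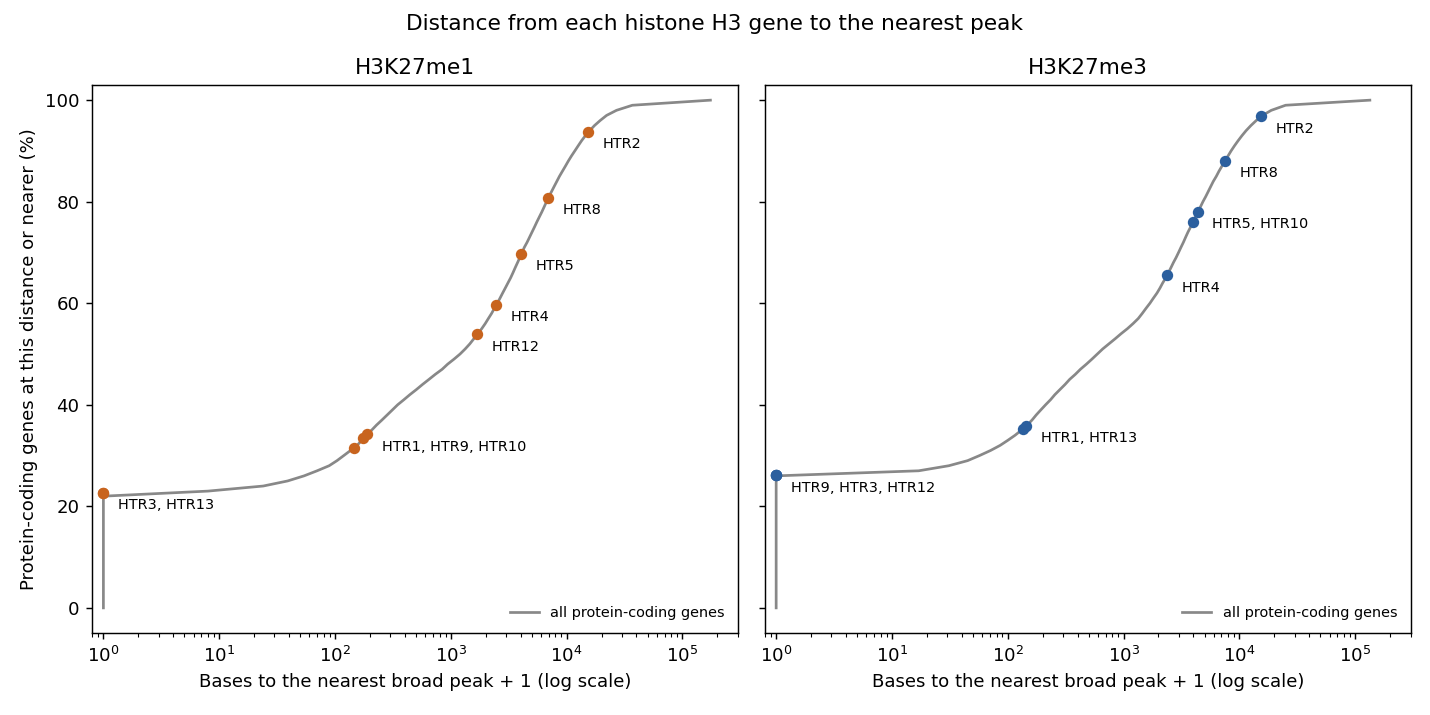
Each point is 1 of the 10 H3 genes, placed at the bases to its nearest broad peak plus 1 (log scale) and at the percent of all protein-coding genes as near or nearer. The grey line is the distribution over all protein-coding genes. The H3 genes spread from 0 bp to over 15 kb for both marks, with HTR2 farthest.

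The peaks nearest to H3 genes were mostly weak in the H3K27me1 list and mostly above the median fold in the H3K27me3 list. The 10 genes had 8 different nearest peaks for each mark, because HTR9 and HTR13, and HTR4 and HTR5, share theirs. For H3K27me1, 7 of the 8 had a −log10 q below the list median of 2.99, and 6 had a fold below the list median of 1.57, with a range of 1.49 to 1.83. For H3K27me3, 4 of the 8 were below the list median −log10 q of 2.67 and 1 below the list median fold of 1.64, with a range of 1.56 to 1.78. The list medians include peaks far from any gene. The nearest peaks of all protein-coding genes were not ranked this way, so these counts have no matching share. The narrow lists reached the body of 1 gene with each mark, HTR3 in both cases, where 8.50% of all genes had narrow H3K27me1 and 8.25% narrow H3K27me3. Among broad peaks at −log10 q 5 or more, 0 of the 10 gene bodies had either mark, against 5.02% and 3.28% of all genes. In the 2 kb flanks, narrow H3K27me1 was found for 2 of the 10, HTR1 and HTR3 (31.6% of all genes), and narrow H3K27me3 for 3, HTR1, HTR3 and HTR12 (33.4%). Broad peaks at −log10 q 5 or more reached the flanks of 1 with H3K27me1, HTR1 (11.7% of all genes), and of 0 with H3K27me3 (8.57%).

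**Figure D4:**
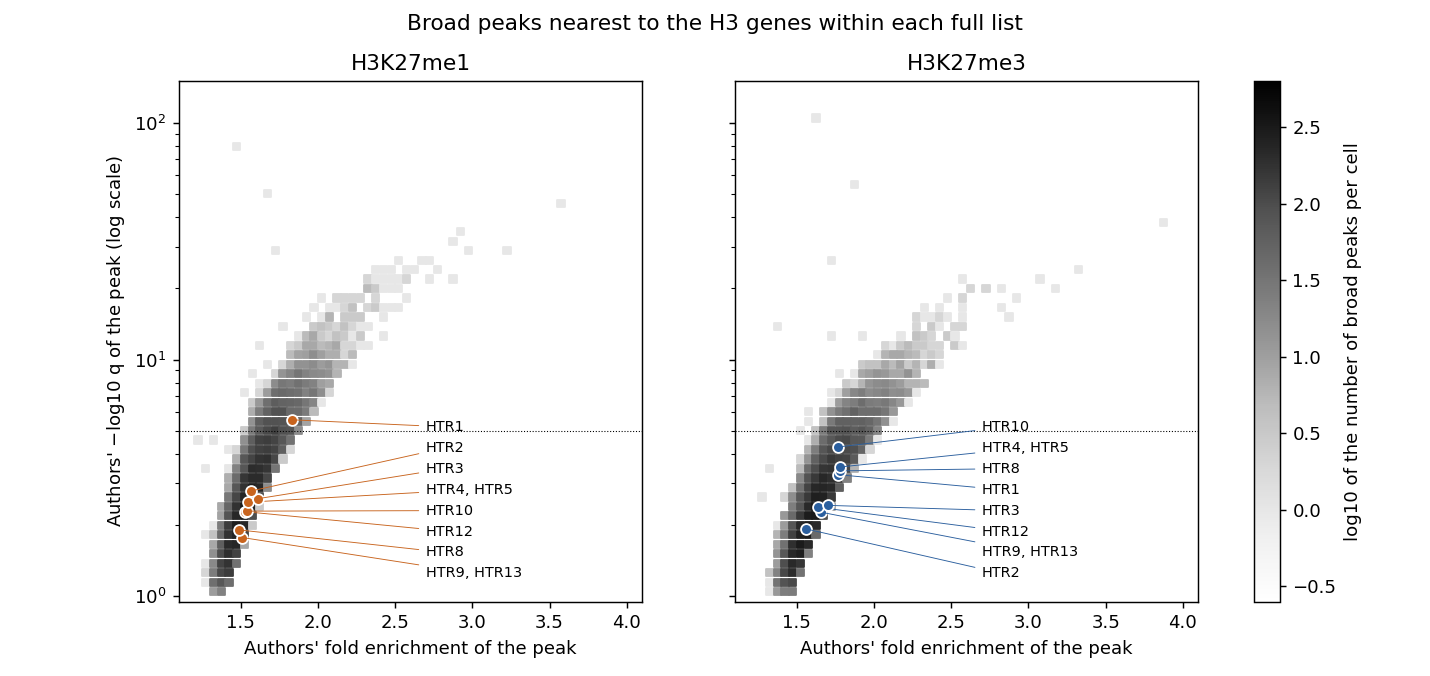
Grey squares show how many broad peaks of the full list fall at each combination of the authors' fold enrichment (horizontal) and −log10 q (vertical, log scale), and coloured points are the peaks nearest to the 10 H3 genes. The dotted line marks a −log10 q of 5, passed among the coloured points only by the H3K27me1 peak beside HTR1.

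Another 5 loci were taken as H3 genes from general knowledge of the Arabidopsis genome. The gene table names 1 of them, HTR11 (AT5G65350), lists AT1G75610 as a transcribed pseudogene and gives AT1G13370, AT1G75600 and AT5G12910 no histone name. AT1G13370 lay 100% under H3K27me3, whose peak spanned 4584377 to 4588926 of chromosome 1 (fold 1.66, −log10 q 2.71), and 0% under H3K27me1, which ended 131 bp away. The other 4 had 0% under both marks. HTR11 stands 33 bp from HTR1 and had the same peaks on its high side, 900 bp (H3K27me1) and 889 bp (H3K27me3) away, as well as peaks of both marks on its low side. AT1G75600 and AT1G75610 shared a peak of each mark in the 1118 bp between them, at fold 1.57 and −log10 q 2.91 for H3K27me1 and fold 1.82 and −log10 q 4.74 for H3K27me3. Of the 5, AT5G12910 alone had no peak in its flanks, with distances of 13771 bp and 7756 bp.

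Genes of the other histones were read beside the H3 genes, and 6 of them lay mostly under both marks in the full broad lists. Of 35 H4, H2A, H2B and H1 genes, 10 had at least 1 base under either mark (31.2% of all genes) and 7 under both (17.5%). Body coverage of at least 50% was found for 6 (17.1%) with each mark, and these were the same 6, where 5.49% and 5.67% of all genes and 9.33% and 9.73% of genes of at most 2000 bp were covered this far. The longest of the 35 had 1992 bp. HIS4, annotated as an H4 gene, lay 100% under both marks, and AT3G53730, listed here as H4, 100% under H3K27me1 and 86.2% under H3K27me3. Among H2A genes, HTA7 lay 100% under both and HTA10 95.9% and 100%. HTB2 and HTB11, genes of H2B, lay 100% under both. Of 3 H1 genes, 0 had a covered base. Broad peaks at −log10 q 5 or more reached 0 of the 35 (6.01% of all genes with either mark), and narrow peaks 3 (11.4%). Coverage of at least 50% fell to 0 genes in both of these selections, against at most 1.69% of all genes. With the 50% of broad peaks of highest fold it held for 2 with H3K27me1 (5.71%) and 3 with H3K27me3 (8.57%). The shares of all genes there were 3.43% and 3.39%. Whether the H3 genes and the other histone genes differ was not tested.

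The bodies of genes acting on H3 itself held at most 20.8% of either mark, and their 2 kb flanks up to 91.05% (HIRA, H3K27me3). Of 6 chaperone genes, 2 had a covered base in the body, where 31.2% of all genes had one with either mark. HIRA, a chaperone gene of H3.3, had 2.42% under H3K27me1 and 2.45% under H3K27me3, and ASF1B, which encodes a chaperone of H3 with H4, 13.8% and 0%. Of 5 H3K27 methyltransferase genes, MEA of the Polycomb group had 19.96% and 20.8% of its body covered, and the bodies of the other 4 had 0% of both. Among 5 demethylase genes, REF6 alone was reached in the body, with 1.28% under H3K27me3 and 0% under H3K27me1. None of these 16 genes was covered over at least 50% by either mark, where 5.49% (H3K27me1) and 5.67% (H3K27me3) of all genes were. Their median lengths were 2735 bp (chaperones), 4470 bp (methyltransferases) and 5041 bp (demethylases), against 2078 bp for all genes. With each mark, broad peaks reached the 2 kb flanks of 5 of 6, 3 of 5 and 4 of 5, where the shares of all genes were 55.4% and 61.6%. Whether these genes differ from others was not tested.

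**Figure D5:**
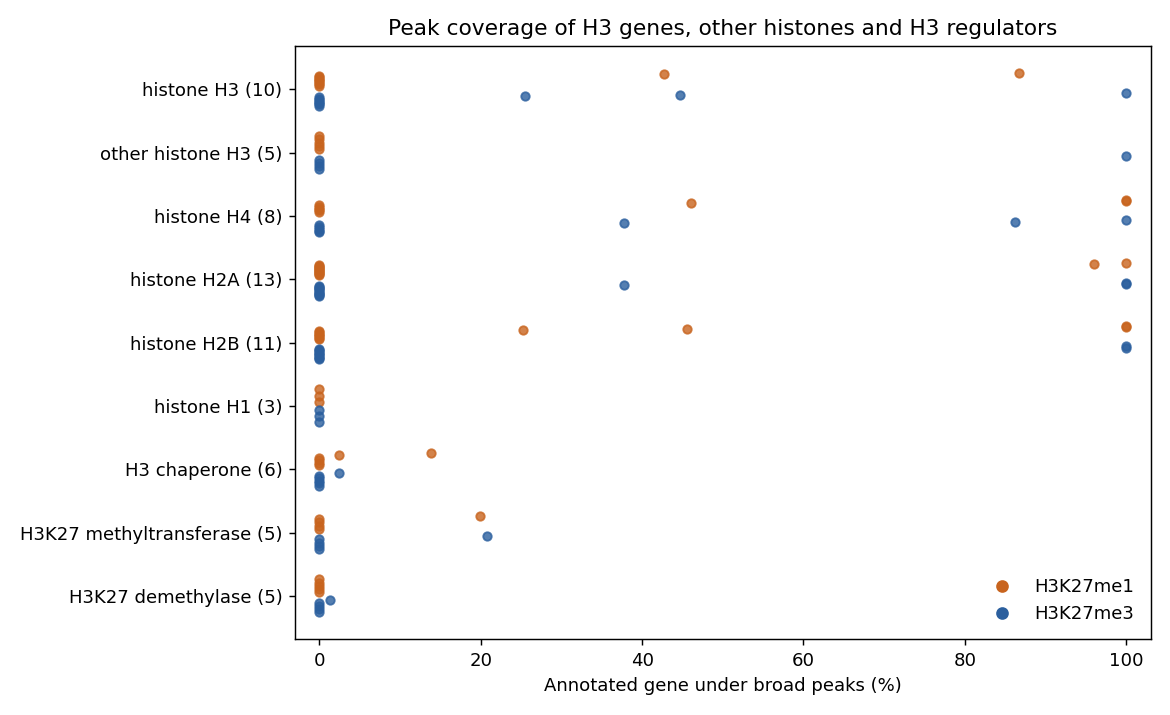
Each point is 1 gene, placed by the percent of its annotated length under broad peaks of H3K27me1 (orange) or H3K27me3 (blue), with the number of genes per group in brackets and a small vertical offset that separates equal values only in part. Most genes of every group sit at 0%, and genes at or near 100% occur among H3, H4, H2A and H2B but not among H1, chaperones, methyltransferases or demethylases.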

How the data were processed

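The peak lists were deposited by the authors, 1 broad and 1 narrow list per mark. Per the submitters' processing notes, which give no role or order, MACS2 2.1.0, Bowtie2 2.1.0, Trim Galore 0.4.1, deepTools 2.5.0.1, SAMtools 1.3, bedtools, Picard and TAIR10 were named. The sources used here do not say how samples and inputs entered peak calling. The deposited fold enrichment (a ratio), −log10 q, score and summit of each peak are the authors' values, and the score was not used. No depth or value per sample is given.

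With Python 3.11.15, pandas 2.3.3 and numpy 2.4.6, overlapping peaks were merged, and covered bases and distances were computed for all 27444 nuclear protein-coding genes of the TAIR10.1 table. Interval functions were tested on simulated data. Sliding narrow peaks in steps of 100 bp up to 3000 bp, their share inside genes was lowest at 0 bp in 10 of 10 combinations of mark and chromosome, so both builds were read with one numbering. All 10 genes, 5 further H3 loci and, of 51 genes in 7 other lists, those covered over at least 50% or else the 2 most covered were named, plus neighbours touched by a nearest peak. Members and lists were chosen with earlier results of these data known. Alternatives were narrow peaks, stricter broad peaks, 1 and 5 kb flanks, 15 H3 loci and peak centres.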

Additional observations from a re-analysis of the deposited data

How the results depend on the processing

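No paired analysis was possible because the lists carry no value per sample, and for the same reason no replicate could be left out. Under narrow peaks, 1 gene body was reached by H3K27me1 and 1 by H3K27me3, 0 and 0 were covered over at least 50%, 2 and 3 had covered flanks, both median flank shares were 0%, and the median distances were 10483 and 4212 bp. With only broad peaks of −log10 q 5 or more, bodies numbered 0 and 0, bodies over 50% 0 and 0, flanks 1 and 0, median flank shares 0% and 0%, and the median distances were 93079 and 42133 bp. Under the 50% of broad peaks with the highest fold, H3K27me1 reached 1 body, 0 over at least 50% and 2 flanks, with a median flank share of 0% and a median distance of 10384 bp. The same counts and medians for H3K27me3 moved by at most 1.5 times there. With 15 H3 loci, covered flanks numbered 10 and 9, median flank shares were 14.4% and 14.7%, median distances were 452 and 463 bp, and 2 genes were over 50% under H3K27me3. Flanks of 5 kb gave median shares of 14.3% and 19.8% and 8 genes with H3K27me3. Flanks of 1 kb gave a median of 7.30% for H3K27me3. Measured to peak centres, the median distances were 1520 and 2826 bp. The share of marked bases under both marks was 57.1% with narrow peaks, 26.9% with the 50% of broad peaks of highest fold and 0% with the −log10 q limit. All of these shares under both marks were chosen after seeing the data, as were those for 15 loci and without HTR9 and HTR13. Stricter selections hold fewer peaks by construction. Of the 60 values of single genes, 22 moved by over 1.5 times under narrow peaks, 34 under the −log10 q limit and 13 under the fold limit. The unmoved values include body and flank shares already at 0% in the full broad lists. A selection of the broad peaks cannot change those, so the counts out of 60 understate how much the other values moved. Unknown depth limits every absence reported here: a gene without a peak may hold a mark below detection.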
